A study of Homo sapiens with 66 samples.

Results

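The genes described here carry the symbols used for proteins of the mitochondrial ribosome. They were chosen by name, as every protein-coding gene whose symbol starts with MRPL (large subunit) or MRPS (small subunit). GENCODE v44 lists 78 such genes. The gene table held 76 of them, 48 MRPL and 28 MRPS, among 20167 genes in all, and MRPS21 and MRPL45 were not analysed here. The rule uses no measured value, though it was set with earlier results of these data known.

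The mitochondrial ribosome is built from ribosomal RNAs made inside the mitochondrion and from proteins that are encoded in the nucleus, made in the cytosol and imported. It translates the few mRNAs of mitochondrial DNA, whose products are membrane subunits of the respiratory chain and of ATP synthase. Myeloma cells are malignant plasma cells that secrete large amounts of antibody protein. Inhibiting ProRS, the prolyl-tRNA synthetase activity of the cytosolic enzyme encoded by EPRS1, leaves proline tRNA uncharged and activates the integrated stress response (ISR).

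Poly(A) RNA was sequenced from 22 groups of 3 libraries each. Of the 66 libraries, 36 in 12 groups came from AMO1, a human myeloma cell line, and 30 in 10 groups from CFZ-resistant L363, a myeloma line made resistant to the proteasome inhibitor carfilzomib (CFZ). Both lines received, for 6 h or 24 h, the solvent DMSO or 1 µM of NCP26, of NCP22 (the compound from which NCP26 was developed), of halofuginone (HFG) or of halofuginol, an analogue of HFG. These 4 compounds bind ProRS. AMO1 also received CFZ at both times. The cultures of the 2 times were handled differently before extraction (frozen overnight at 6 h, kept on ice at 24 h), so time and handling cannot be told apart. The labels do not say whether the 3 libraries of a group came from separate cultures, and all p-values measure only the spread between these libraries.

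Total counts ranged from 1666325 to 6596543 per library, with a median of 3165566. All 10 plasma cell markers were present in every library. Of the 4 T cell markers CD3D was at 0 in 35 of 36 AMO1 and 30 of 30 CFZ-resistant L363 libraries, whereas CD3E reached 4.004 CPM (counts scaled to 1e6 per library) in AMO1, with a median of 1.58. The 3 monocyte and 3 erythroid markers reached at most 1.66 CPM. The stromal marker COL1A1 was above 0 in every library (up to 9.64 CPM) and the epithelial marker CDH1 reached 6.40 CPM in AMO1; their part in the results was not tested. The sample numbers in the table's column names recur 3 times and so divide the libraries into 3 sets of 22, named A, B and C here; what a set was in the laboratory is not given. In AMO1 at 24 h the DMSO libraries lay in set A and nearly all treated libraries in set B, and in CFZ-resistant L363 at 6 h the DMSO libraries lay in set B and the HFG and halofuginol libraries in set C. For these comparisons with DMSO, treatment and set cannot be told apart, whereas all AMO1 comparisons at 6 h, all CFZ-resistant L363 comparisons at 24 h and nearly all direct comparisons of compounds lay within 1 set. Members took between 0.239% and 0.597% of all counts in a library. Of the 3 libraries that stood apart from their replicates in this share, CFZ 24 h replicate 2 of AMO1 had 0.268% against 0.400% and 0.406%. DMSO 24 h replicate 2 of CFZ-resistant L363 had 0.239% against 0.392% and 0.403%. NCP26 6 h replicate 2 of CFZ-resistant L363 had 0.597% against 0.478% and 0.499%. Member counts and medians that rest on these libraries are given with and without them. Exceptions are the alternative fits and the calls and ranges over all comparisons with DMSO, both described below.

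**Figure D1:**
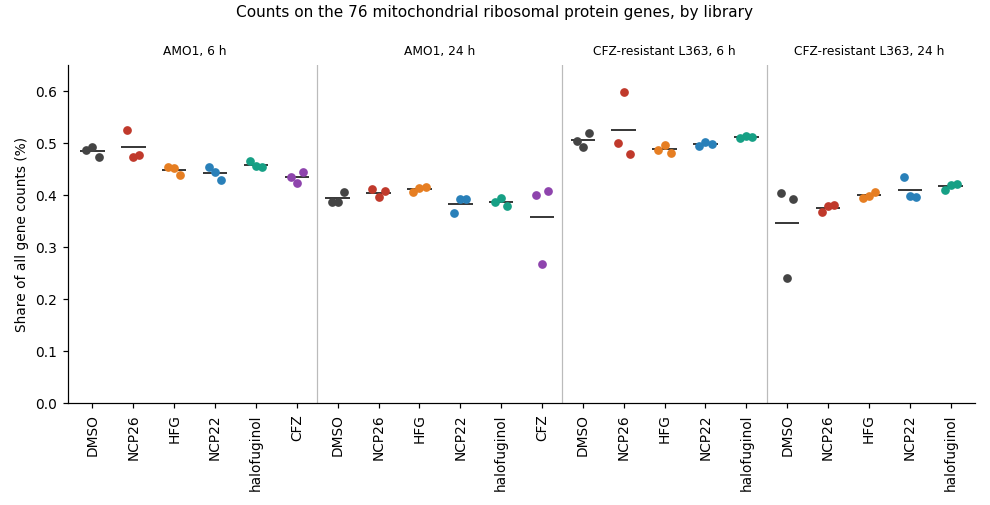
Share of all counts taken by the 76 mitochondrial ribosomal protein genes (percent, vertical axis) in each of the 66 libraries, grouped by line, time and treatment (horizontal axis); points are libraries and lines are group means. The 3 libraries that stood apart were CFZ 24 h replicate 2 of AMO1 at 0.268%, DMSO 24 h replicate 2 of CFZ-resistant L363 at 0.239% and NCP26 6 h replicate 2 of CFZ-resistant L363 at 0.597%.

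The genes lay on 21 chromosomes and were short, with a median canonical transcript of 1242 bases against 2893 bases over all genes, at a similar GC content (48.9% against 49.1%). For 26 members (34.2%) the start lay within 1000 bases of the start of another coding gene on the opposite strand, against 9.46% of 20046 coding genes. Promoter sequence from RefSeq (GRCh38.p14; 250 bases before to 50 bases after the start) was matched for 67 members and was searched on both strands for 7 motifs. The YY1 motif AAGATGGC was in 29.9% of member promoters (20 genes) against 4.83% of 14783 coding-gene promoters, and in 15 of the 20 it lay after the start. The ETS motif CCGGAAG was in 43.3% (29 genes) against 16.9%. The E-box CACGTG was in 11.9% against 11.02%, and the NRF1 motif in 11.9% against 9.94%. The amino acid response motif TGATGNAA was in 1.49% against 3.65%. A heat shock element of 2 units, GAANNTTC or TTCNNGAA, was in 16.4% against 14.8%, and one of 3 units, which adds a further GAA or TTC after 2 bases and so contains the former, in 2.99% against 0.548%. A match is a description of letters and not a binding site. The windows below are from members whose values are given further on, with the motif in capitals, read 5′ to 3′ on the strand of the gene.
MRPL22, YY1, chr5:154941093-154941122, plus strand: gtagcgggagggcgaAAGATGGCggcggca
MRPL49, YY1, chr11:65122333-65122362, plus strand: cgtagcaggtaAAGATGGCagctaccatgt
MRPL42, YY1, chr12:93467511-93467540, plus strand: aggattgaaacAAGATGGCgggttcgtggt
MRPS30, YY1, chr5:44808949-44808978, plus strand: aatcgcgggcaAAGATGGCggcggccaggt
MRPS24, YY1, chr7:43869480-43869509, minus strand: ccgcttggcccAAGATGGCggcctccgtgt
MRPL58, ETS, chr17:75012651-75012680, plus strand: ggaagcgcccgCCGGAAGcagtcgcaagac
MRPS26, ETS (reverse complement), chr20:3046004-3046033, plus strand: tccccgcgccgCTTCCGGggcacggtggcg
MRPL18, heat shock element of 2 units, chr6:159789867-159789896, plus strand: attctagtgccTTCTAGAAaaggttgtaag

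Levels across genes, per length, spread widely. In CPM (TMM-scaled counts per 1e6 counts) per kilobase of canonical transcript the quartiles of the 76 members were 22.9, 37.99 and 59.4. MRPS24, a small subunit protein, was highest at 252.8, but 27.1% of its 31-base words also occur in other genes. MRPL34 followed at 158 and MRPL51 at 125. MRPL42 was among the lowest at 2.94, but this rests on a canonical transcript of 15557 bases, and its mean was 45.8 CPM before division by length. MRPL30 was the lowest, at 0.240, with no count in 48 of 66 libraries, and is left out of what follows except where it passed the filter. In 18 members over 5% of 31-base words occur elsewhere, with the largest share in MRPL12 at 68.5%, and 8 members overlap another gene on the same strand, so their counts are less certain.

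In AMO1 at 6 h more members fell than rose with HFG. With NCP26 more also fell than rose, but the share that fell, 22.67%, was near the 19.2% of all genes. The members that fell came from every role group described below, with 5 large-subunit core genes among them for each compound. Of 75 members tested with HFG, 37 fell and 3 rose, against 26.6% of all genes that fell and 27.7% that rose. The median member changed by −0.27 on the log2 scale, against 0.01 over all genes. With NCP26, 17 fell and 8 rose, against 19.2% and 18.1% of all genes, with a median of −0.07. A gene was said to rise or fall where the adjusted p of edgeR's quasi-likelihood test was under 0.05. The NCP26 count depended on single libraries. It was 15 and 11 without DMSO replicates 1 and 2, and 32, 15 and 16 without NCP26 replicates 1, 2 and 3. Over fits that left out 1 library its median ran from −0.14 to −0.06. NCP26 replicate 1 had the highest member share of its group, 0.524% against 0.473% and 0.476%. These 2 comparisons share their DMSO libraries. An offset for GC content and length moved the HFG median from −0.27 to −0.09. Its split moved to 25 lower and 8 higher, against 26.34% and 25.3% of all genes. With an offset for GC content alone the NCP26 split was 16 lower and 3 higher, against 16.73% and 15.79% of all genes. With the offset for GC content and length it was 15 lower and 8 higher, against 19.05% and 17.64% of all genes. The NCP26 median was then −0.009.

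**Figure D2:**
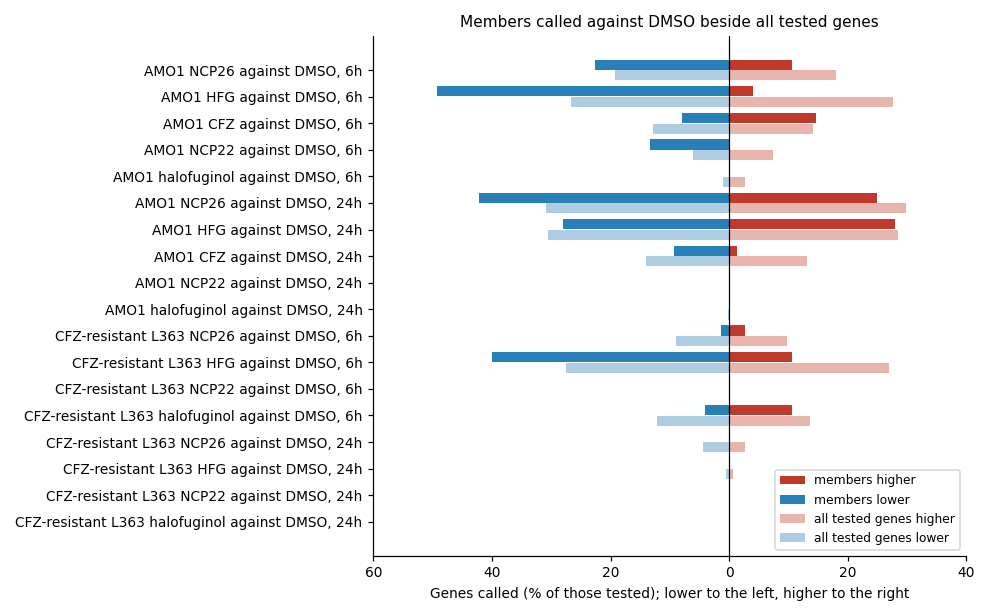
Percent of the tested mitochondrial ribosomal protein genes that rose (to the right) or fell (to the left) at an adjusted p under 0.05 in each comparison, in dark bars, with the percent of all tested genes in pale bars. In AMO1 at 6 h, 37 of 75 members fell with HFG against 26.6% of all genes, and 17 of 75 with NCP26 against 19.2%.

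MRPL4, a protein of the early large-subunit core at the tunnel (ENSG00000105364, GRCh38 chr19:10251901-10260055, plus strand), fell most. It stood at 233.1, 217.7 and 182.3 CPM with DMSO, at 116.6, 90.02 and 112.0 with NCP26 and at 79.0, 91.8 and 91.0 with HFG. Every treated library lay below every DMSO library. The change was −0.98 (SE 0.126, adjusted p = 9.8e-05) with NCP26 and −1.23 (SE 0.0962, adjusted p = 5.4e-08) with HFG. MRPS26, a small-subunit protein without a bacterial counterpart, was at 65.04, 65.4 and 53.4 CPM with DMSO, at 30.5, 38.5 and 25.7 with NCP26, and at 24.9, 31.7 and 25.5 with HFG. These groups did not overlap either, and the changes were −0.94 (SE 0.153, adjusted p = 0.00052) and −1.13 (SE 0.124, adjusted p = 1.9e-06). MRPL17, which lines the exit tunnel, was at 56.5, 57.7 and 43.5 CPM with DMSO and at 43.8, 26.2 and 21.8 with NCP26, so 1 NCP26 library overlapped the DMSO range (−0.79, SE 0.213, adjusted p = 0.011). With HFG it stood at 23.4, 22.7 and 22.4 CPM in all libraries (−1.17, SE 0.13, adjusted p = 1.9e-06). MRPL2, a protein near the peptidyl transferase centre, was at 44.6, 45.1 and 37.9 CPM with DMSO, 31.7, 21.58 and 27.9 with NCP26 and 26.45, 20.01 and 22.4 with HFG. Its groups did not overlap, at −0.65 (SE 0.158, adjusted p = 0.0064) and −0.87 (SE 0.133, adjusted p = 4.9e-05).

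**Figure D3:**
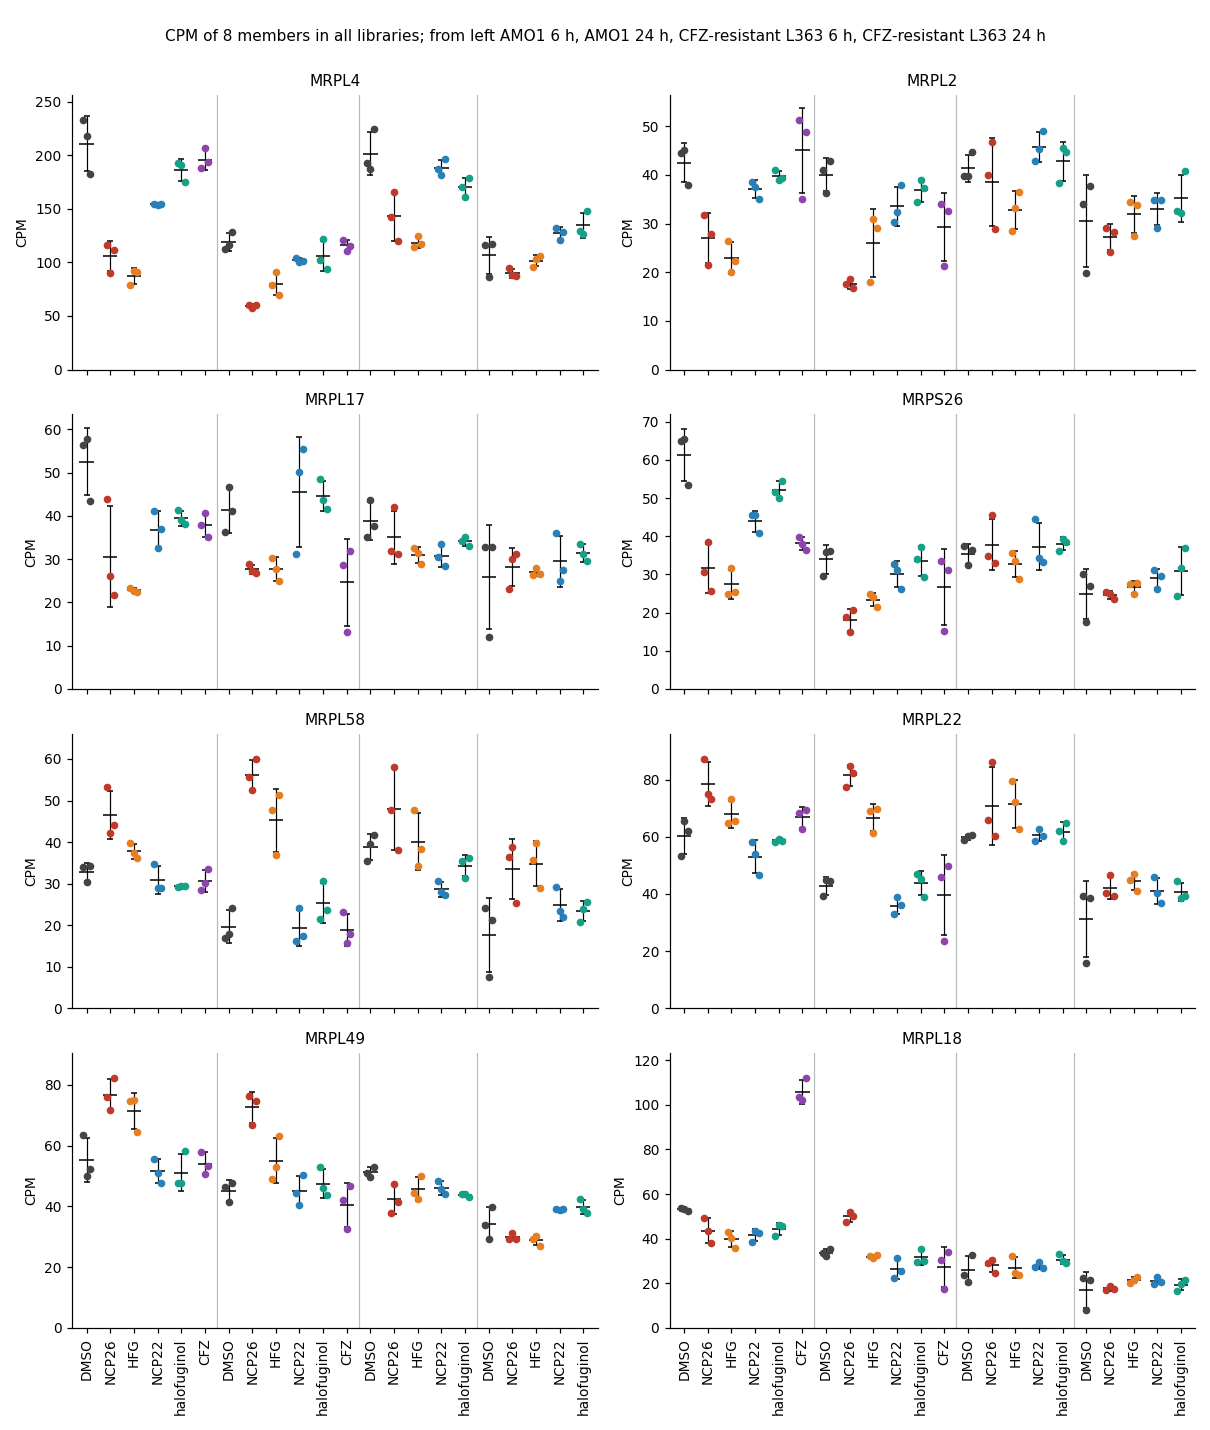
Normalised counts (CPM, vertical axis, from 0) of MRPL4, MRPL2, MRPL17, MRPS26, MRPL58, MRPL22, MRPL49 and MRPL18 in every library, by group (horizontal axis); points are libraries, lines are group means and error bars are SD (n = 3). MRPL4 in AMO1 at 6 h lay between 182.3 and 233.1 with DMSO and between 79.0 and 116.6 with HFG and NCP26.

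The core group held members near the peptidyl transferase centre and of the early large-subunit core (MRPL2, MRPL3, MRPL4, MRPL14, MRPL16 and MRPL19). Of the groups set apart by role, it had the largest share of members that fell with NCP26 and HFG in AMO1 at 6 h. With NCP26 at 6 h, 5 of 6 fell and none rose (median −0.67), and with HFG 5 of 6 fell and none rose (median −0.81). With an offset for GC content and length these counts were 4 of 6 (median −0.53) and 6 of 6 (median −0.64). Among the 5 stalk proteins, which recruit translation factors, 1 rose and 1 fell with NCP26 (median −0.13) and 3 fell with HFG (median −0.37). Among the 8 small-subunit proteins of the decoding region and mRNA path, 2 fell with NCP26 and 4 with HFG, with a median of −0.20 in each. Of the 7 exit tunnel proteins 2 rose and 2 fell with NCP26, and of the 8 of the central protuberance, which binds the structural RNA between the subunits, 1 rose and 1 fell. The core group did not have the largest share in every comparison with DMSO. With HFG at 24 h in AMO1, 3 of 6 core members and 3 of 5 stalk proteins fell. With NCP26 at 24 h in AMO1 5 of 6 and 3 of 5 fell. With HFG at 6 h in CFZ-resistant L363, 4 of 6 core members fell and 1 rose, and 4 of 5 stalk proteins fell (median −0.32 in each). In these comparisons treatment and set cannot be told apart. Because members were grouped with earlier results of these data known, these counts describe the groups and were not tested.

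The members that rose at 6 h did so by less. MRPL58, a peptidyl-tRNA hydrolase built into the large subunit that can release stalled chains (ENSG00000167862, GRCh38 chr17:75012670-75021261, plus strand), was at 34.01, 30.4 and 34.3 CPM with DMSO and at 53.2, 42.2 and 44.2 with NCP26. The groups did not overlap (0.50, SE 0.135, adjusted p = 0.011). MRPL49 was at 63.4, 50.0 and 52.4 CPM with DMSO and at 75.9, 71.8 and 82.2 with NCP26, also without overlap (0.48, SE 0.119, adjusted p = 0.0074). MRPL1, a large-subunit protein beside the tRNA exit site, rose by 0.48 with NCP26 and by 0.53 with HFG, the highest value among members with that compound. MRPL42, MRPL22, MRPL39, MRPS10 and MRPL10 also rose with NCP26, by between 0.30 and 0.42. With the offset for GC content alone 3 members rose with NCP26, against 15.79% of all genes. With the offset for GC content and length 8 rose, against 17.64%. Across members the change in AMO1 at 6 h had a Pearson r with GC content of −0.45 for NCP26 and −0.47 for HFG.

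**Figure D4:**
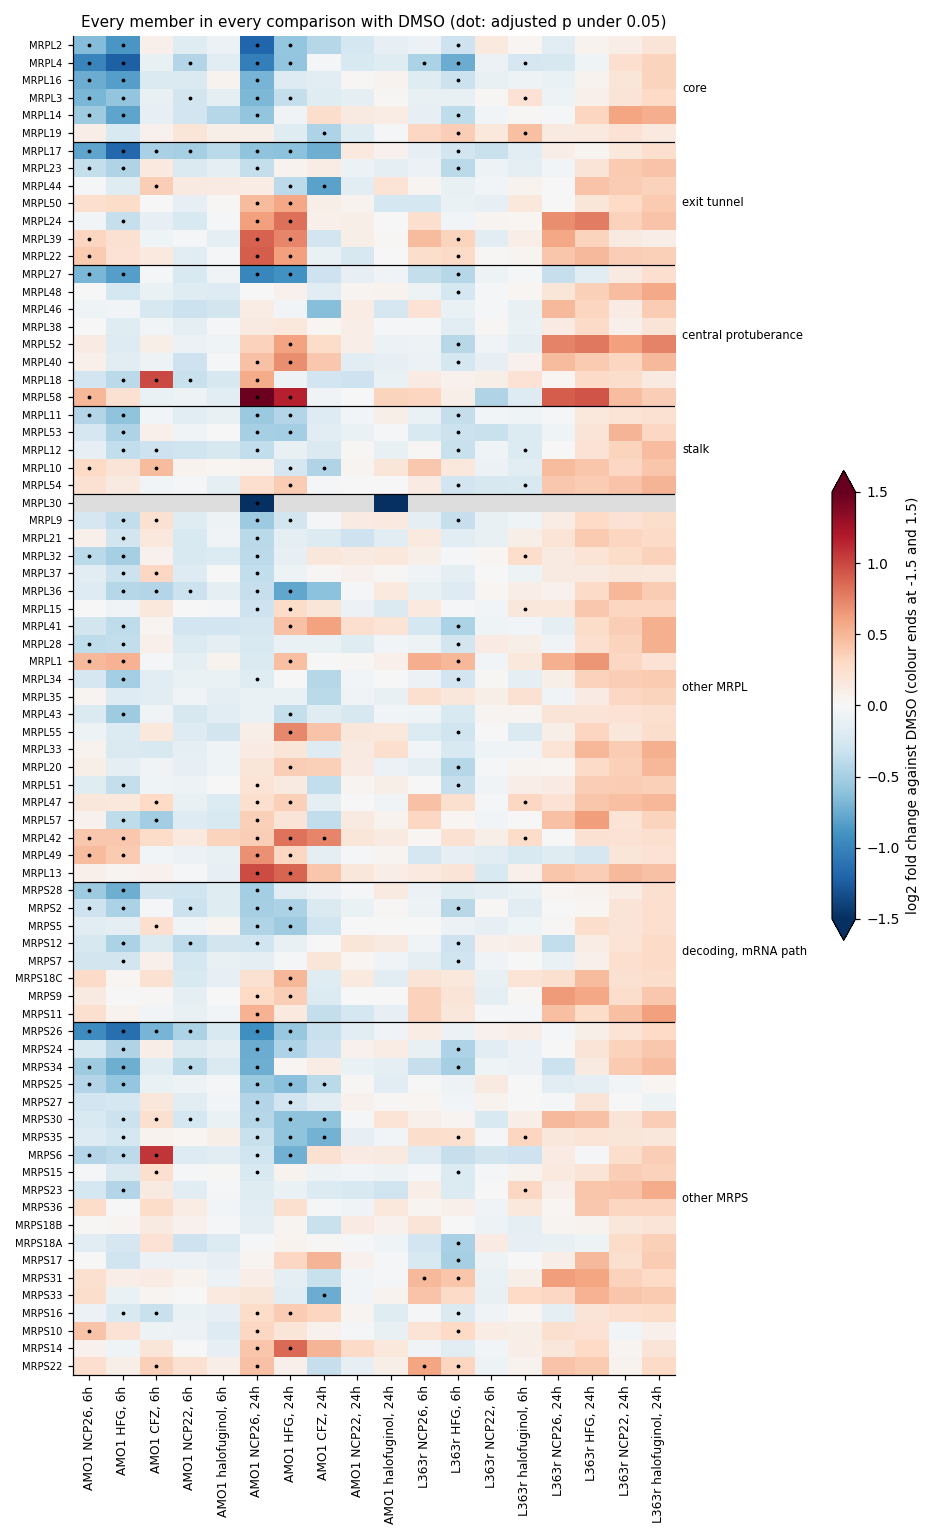
log2 fold change of each mitochondrial ribosomal protein gene (rows, grouped by role) in the comparisons with DMSO (columns), on a colour scale centred at 0, with a dot where the adjusted p is under 0.05. MRPL4 is negative with NCP26 and HFG in AMO1 at both times, and MRPL58 is positive, up to 1.47 with NCP26 at 24 h.

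Few members were called with NCP22 and halofuginol in AMO1, though most had negative values at 6 h. Of 75 members 64 were negative with NCP22 (median −0.17) and 61 with halofuginol (median −0.11), against 45 with NCP26. The medians over all genes were −0.007 and −0.005 with NCP22 and halofuginol. With the GC and length offset the member medians were −0.11 and −0.04. These comparisons share their DMSO libraries. With NCP22 at 6 h, 10 members fell and none rose, against 6.08% and 7.42% of all genes, among them MRPL17 (−0.50), MRPS26 (−0.47) and MRPL4 (−0.44, SE 0.0819, adjusted p = 0.0013). This count was 4, 1, 5, 4 and 3 without DMSO replicates 1 and 2 and NCP22 replicates 1, 2 and 3, respectively, and 4 with DESeq2. MRPL4 stood at 154.8, 153.9 and 154.5 CPM with NCP22, below all DMSO libraries. With halofuginol at 6 h 0 members passed in edgeR and 0 in DESeq2, with 13 at an unadjusted p under 0.05, where 1.02% of all genes fell and 2.6% rose; without DMSO replicate 3, 8 passed. MRPL4 was at 193.1, 191.2 and 174.9 CPM with halofuginol, overlapping the DMSO range (−0.17, adjusted p = 0.24).

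With CFZ at 6 h the members that rose most were MRPS6 and MRPL18. Of 75 members 11 rose and 6 fell, against 14.1% and 12.8% of all genes, with a median of 0.01. DESeq2 called 8 members, and 11 and 10 passed in edgeR without CFZ replicates 1 and 3. MRPS6, an RNA-binding protein of the small-subunit platform (ENSG00000243927, GRCh38 chr21:34073224-34143034, plus strand), was at 35.7, 47.9 and 49.9 CPM with DMSO and at 97.5, 83.7 and 100.5 with CFZ. The groups did not overlap (1.08, SE 0.116, adjusted p = 3.5e-07). SLC5A3, the inositol transporter gene that overlaps MRPS6 on the same strand, rose by 0.91 (SE 0.163, adjusted p = 0.00023), and how the overlap divided the counts was not tested. MRPL18, a central protuberance protein that binds 5S rRNA in other ribosomes and whose gene (ENSG00000112110, GRCh38 chr6:159789812-159798436, plus strand) holds the heat shock element shown above, was at 53.8, 53.1 and 52.4 CPM with DMSO and at 103.4, 102.2 and 111.9 with CFZ. All CFZ libraries lay above all DMSO libraries (0.99, SE 0.089, adjusted p = 2.1e-08). That element lies beside an alternative start of MRPL18, before its canonical start at 159790467. TCP1, a subunit of the cytosolic chaperonin on the other strand, starts 865 bases from the canonical start. It rose by 1.04 (SE 0.0589, adjusted p = 8.7e-12), from 339.1 to 699.9 CPM. MRPL10, which anchors the stalk, rose by 0.47 (adjusted p = 0.00013).

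Members that fell with CFZ at 6 h were led by MRPS26, at 39.9, 38.1 and 36.4 CPM (−0.69, SE 0.114, adjusted p = 8.4e-05), below all DMSO libraries. MRPL57 had −0.52 (adjusted p = 0.00072) and MRPL17 −0.48 (adjusted p = 0.0061). SKA3, a kinetochore gene that starts 106 bases from MRPL57 on the other strand, had −0.52 (adjusted p = 0.019). Of 22 such pairs, those of MRPL57 and MRPL18 were the 2 with both genes called here, each in the same direction. With NCP26 at 24 h in AMO1 both genes were called in 11 pairs, of which 3 had the same direction. With HFG in AMO1 both were called in 7 pairs at 6 h (6 in the same direction) and in 6 at 24 h (4). With HFG at 6 h in CFZ-resistant L363 it was 2 pairs (2 in the same direction), and with NCP22 at 6 h in AMO1 1 (1). With CFZ at 6 h MRPL4 did not pass, at 187.9, 206.5 and 193.8 CPM. The core group had a median of −0.11 with CFZ at 6 h, with none of 6 passing.

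CFZ at 24 h gave a count that moved with single libraries. With all libraries 7 members fell and 1 rose, against 14% and 13.1% of all genes, led by MRPL44 (−0.81), MRPS33 (−0.74) and MRPS35 (−0.71). Without CFZ replicate 2, 12 fell and 19 rose, and the median moved from −0.17 to 0.03. In that fit, 2620 of the 10378 genes tested at both times fell and 2412 rose. The count was 3, 2 and 1 without DMSO replicates 1, 2 and 3. It was 14 lower and 8 higher with the GC and length offset and 4 lower and 7 higher with the set term described below. MRPL18 was no longer called (−0.28, adjusted p = 0.36). Of the 11 members that rose and the 6 that fell at 6 h, 0 were called in the same direction at 24 h and 3 in opposite directions, where 23.7% of all genes that rose and 40.99% of those that fell were called the same way again. Without CFZ replicate 2, 1 of the 11 and 2 of the 6 were (40.7% and 59.3% of all genes), and 4 were called in opposite directions.

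At 24 h in AMO1 the NCP26 and NCP22 libraries lay in the same set, B. Of the members, 17 were higher and 26 lower with NCP26, against 26.3% and 25.7% of all genes. MRPL58 was at 55.7, 52.5 and 60.0 CPM with NCP26 and at 16.1, 24.2 and 17.5 with NCP22, 1.49 higher (adjusted p = 1.1e-06). MRPL22, a protein at the tunnel exit, was at 77.5, 84.7 and 82.5 CPM against 33.1, 38.8 and 35.98, 1.18 higher (adjusted p = 3.6e-07). MRPL4 was at 60.0, 57.4 and 60.6 CPM with NCP26 and at 103.8, 100.3 and 101.8 with NCP22 (−0.77, adjusted p = 3e-06). None of these 3 genes had overlapping groups. MRPL2 had −0.91 (adjusted p = 0.00012) and MRPL27 −0.82 (adjusted p = 0.00029). In this comparison 5 of the 6 core members were lower and 1 was higher (median −0.69), while 5 of the 7 exit tunnel proteins were higher and 1 was lower (median 0.43).

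Against DMSO at 24 h, where set and treatment coincide, 19 members rose and 32 fell with NCP26, against 29.8% and 30.9% of all genes, and 21 rose and 21 fell with HFG, against 28.5% and 30.5%. A fit of all AMO1 groups at 24 h with a set term rests on the single CFZ library in set A. It is set against CFZ replicates 2 and 3, of which replicate 2 stood apart, and no such fit without replicate 2 is given. This fit left 12 higher and 2 lower with NCP26, against 9.24% and 11.45% of all genes. With HFG it left 15 higher and 1 lower, against 12.1% and 14.9%. It also moved the medians with NCP22 and halofuginol from 0.004 and −0.005 to 0.32 and 0.29. MRPL58 stood at 16.9, 17.9 and 24.2 CPM with DMSO and at 47.8, 36.8 and 51.3 with HFG. The change was 1.47 (SE 0.121, adjusted p = 7.9e-12) with NCP26 and 1.17 (SE 0.155, adjusted p = 3.4e-06) with HFG, and 1.95 and 1.65 with the set term. MRPL22 was at 39.2, 44.8 and 44.6 CPM with DMSO and rose with NCP26 by 0.91 (SE 0.0863, adjusted p = 1.8e-10), or by 1.24 with the set term. MRPL13, a protein of the large subunit's solvent side, was at 29.7, 28.55 and 29.03 CPM with DMSO, at 58.5, 55.4 and 58.5 with NCP26 and at 56.2, 49.6 and 54.6 with HFG. Both treated groups lay above DMSO (0.98, SE 0.099, adjusted p = 6.2e-10, and 0.88, adjusted p = 8.6e-07). MRPL39 rose with NCP26 by 0.88 (adjusted p = 2.2e-09) and MRPL24 by 0.61.

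Of the members that fell with NCP26 at 24 h, MRPL2 was at 41.03, 36.3 and 42.8 CPM with DMSO and at 17.5, 18.6 and 16.7 with NCP26 (−1.19, SE 0.129, adjusted p = 2.3e-09). MRPL4 was at 112.8, 116.3 and 128.5 CPM with DMSO (−1.02, SE 0.0789, adjusted p = 1.7e-12). Neither gene's groups overlapped. MRPL30 had the lowest value, −2.60, but its DMSO libraries held 0, 17 and 72 counts and its NCP26 libraries 10, 0 and 1. With HFG at 24 h the lowest were MRPL27 (−0.90), MRPL36 (−0.78) and MRPS6 (−0.73). MRPL4 was at 79.3, 91.4 and 69.9 CPM with HFG (−0.59, SE 0.091, adjusted p = 2.2e-05). NCP22 and halofuginol at 24 h gave 0 members in edgeR and in DESeq2, with 5 and 10 at an unadjusted p under 0.05, where 0.0% of all genes passed with NCP22 and 0.0731% rose and 0.11% fell with halofuginol; 1 member passed with NCP22 when NCP22 replicate 1 was left out.

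Most members called with NCP26 at 6 h were called in the same direction at 24 h. The 6 h and 24 h comparisons share no library. Of the 8 members that rose at 6 h, 6 also rose at 24 h and of the 17 that fell 16 also fell, against 68.8% and 77.8% over all genes, and 0 were called in opposite directions. These were 6 of the 19 that rose and 16 of the 31 that fell at 24 h (of 75 members tested at both times). Across 75 members the log2 fold changes at the 2 times had a Pearson r of 0.80, against 0.63 over 10507 genes; members share libraries within each time, and this is a description across genes. For HFG r was 0.64 (0.59 over all genes), with 3 of 3 members that rose and 17 of 37 that fell at 6 h doing so again at 24 h, against 51.1% and 62.03% over all genes, and 3 in opposite directions. The change with NCP26 itself differed between the times, by an interaction term, for 8 members, against 7.36% of all genes higher and 10.1% lower. It was more positive at 24 h for 6: MRPL58 (0.97, adjusted p = 0.0016), MRPL13 (0.90, adjusted p = 0.00051), MRPL18 (0.84, adjusted p = 0.00067), MRPL24 (0.65), MRPL39 (0.55) and MRPL22 (0.52). It was more negative for MRPL1 (−0.71, adjusted p = 0.021) and MRPS24 (−0.52, adjusted p = 0.024). With the GC and length offset 8 members were more positive and 6 more negative.

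**Figure D5:**
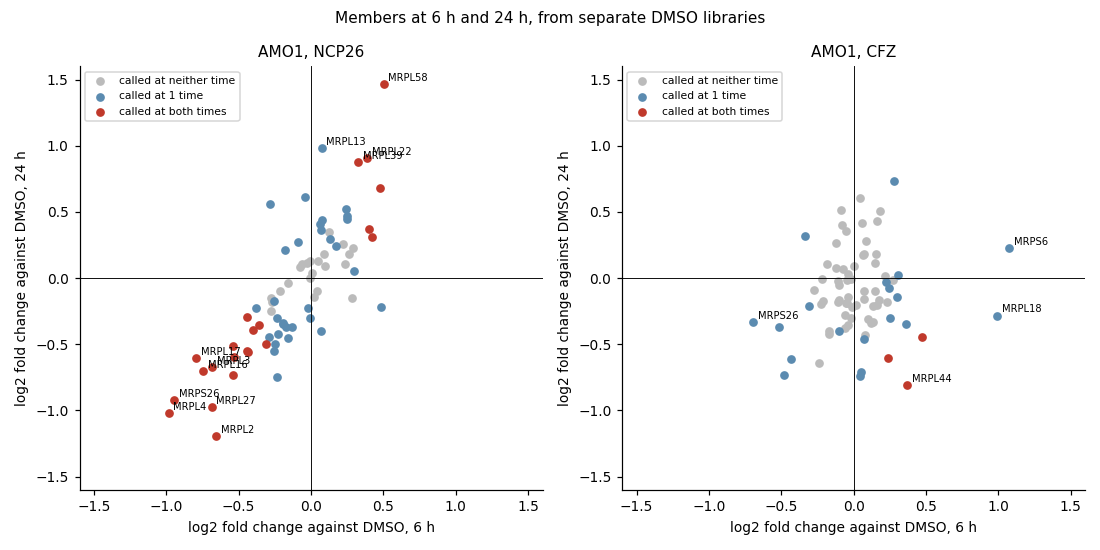
log2 fold change against DMSO in AMO1 at 24 h (vertical axis) against that at 6 h (horizontal axis) with NCP26 (left) and CFZ (right), each point a mitochondrial ribosomal protein gene, coloured by the number of times at which it passed. The 75 points have a Pearson r of 0.80 with NCP26, with MRPL4 at −0.98 and −1.02 and MRPL58 at 0.50 and 1.47, and of 0.12 with CFZ (0.08 without CFZ 24 h replicate 2).

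CFZ-resistant L363 at 6 h gave a smaller range of changes. With HFG 30 of 75 members fell and 8 rose, against 27.5% and 26.9% of all genes (median −0.16). HFG and DMSO lay in different sets here, and a set term that rests on 1 NCP22 library left 3 lower and 2 higher. Adjusting for GC content gave 18 lower and 2 higher, adjusting for GC content and length gave 14 lower and 8 higher with a median of −0.03, DESeq2 called 19 members, and across members the change had a Pearson r of −0.69 with GC content. MRPL4 fell most, from 192.8, 187.2 and 224.7 CPM to 114.3, 124.3 and 116.8 with no overlap (−0.75, SE 0.0745, adjusted p = 1.7e-08, and −0.81 with the set term). MRPS34 (−0.50), MRPS18A (−0.49) and MRPS17 (−0.49) followed. MRPL1 (0.50), MRPS31 (0.42) and MRPL19 (0.37) rose most, of which MRPL19 had −0.18 after adjustment for GC content and length. Halofuginol at 6 h, in the same set as HFG, gave 8 higher and 3 lower (13.6% and 12.2% of all genes), with MRPL19 at 0.45 and MRPL4 at −0.26 (adjusted p = 0.0092). DESeq2 called 3 members there, the set term and the GC offset each left 1 higher and 0 lower, and the GC and length offset left 0. The count was 7, 7, 1 and 5 without DMSO replicate 1 and halofuginol replicates 1, 2 and 3.

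NCP26 at 6 h in CFZ-resistant L363, within 1 set, passed for 3 members, against 9.81% of all genes higher and 8.99% lower. MRPS22 (0.59) and MRPS31 (0.48) rose and MRPL4 fell, from 192.8, 187.2 and 224.7 CPM to 142.9, 166.1 and 120.2 (−0.48, SE 0.127, adjusted p = 0.025). The groups of MRPL4 did not overlap, but its call was lost in 5 of 6 fits that left out 1 library and was −0.27 after adjustment for GC content. Without NCP26 replicate 2, the library that stood apart, 20 members fell and 2 rose, and the median moved from −0.01 to −0.15. In that fit, 1962 of the 10187 genes tested in both lines fell and 1909 rose. With the GC offset, the GC and length offset and the set term the splits were 1 higher and 1 lower, 5 and 4, and 10 and 3. The count was 0, 1, 0, 1 and 6 without DMSO replicates 1, 2 and 3 and NCP26 replicates 1 and 3. NCP22 at 6 h passed for 0 members in edgeR and in DESeq2, with 7 at an unadjusted p under 0.05, where 0.0% of all genes passed.

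At 24 h in CFZ-resistant L363 no compound passed for any member against DMSO, in edgeR or DESeq2. At an unadjusted p under 0.05 there were 7 members with NCP26, 5 with HFG, 1 with NCP22 and 4 with halofuginol. Of all genes 2.71% rose and 4.38% fell with NCP26, 0.592% and 0.573% with HFG, and 0.0% in either direction with NCP22 and halofuginol. The medians were 0.10, 0.28, 0.27 and 0.34. DMSO replicate 2, which stood apart, entered all 4 comparisons. Without it 12 members fell and 4 rose with NCP26 (median −0.11). In that fit, 1633 of the 10302 genes tested in both lines fell and 1403 rose. With HFG 5 members rose (median 0.05), and the all-gene calls of that fit are not given here. Without the same library 0 passed with NCP22 (median 0.06, 4 at an unadjusted p under 0.05) and with halofuginol (median 0.11, 11 at an unadjusted p under 0.05). MRPL4 was at 116.4, 86.3 and 116.8 CPM with DMSO, the lowest in replicate 2, and at 94.9, 88.2 and 86.9 with NCP26.

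The lines differed in the change for few members. For NCP26 at 6 h the interaction with line passed for 3, against 1.96% of all genes higher and 0.752% lower. MRPS26 fell in AMO1 and was at 34.8, 45.45 and 33.03 CPM with NCP26 against 37.5, 32.3 and 36.3 with DMSO in CFZ-resistant L363, a difference of 1.04 (adjusted p = 0.016). MRPL49 rose in AMO1 and was at 37.9, 47.4 and 41.6 CPM against 50.9, 49.7 and 53.0 in CFZ-resistant L363 (−0.75, adjusted p = 0.021). The difference for MRPL3 was 0.55 (adjusted p = 0.031). The count was also 3 without NCP26 replicate 2 of CFZ-resistant L363, where the median moved from 0.14 to −0.0002, and with the GC and length offset 4 were higher and 1 lower. These 3 calls fell to 0 or 1 when any of 7 libraries was left out: 0 without DMSO replicate 2 or NCP26 replicate 3 of AMO1, and 1 without DMSO replicate 3 of AMO1, DMSO replicates 1, 2 and 3 or NCP26 replicate 1 of CFZ-resistant L363. At 24 h 2 passed for NCP26, against 2.97% and 2.44% of all genes, MRPL49 (−0.89, adjusted p = 0.013) and MRPL4 (0.75, adjusted p = 0.024). That count was 19 without DMSO replicate 2 and 4 without DMSO replicate 1 of CFZ-resistant L363, and 1 without any of the NCP26 libraries or DMSO replicates 2 and 3 of AMO1. For HFG at 24 h 6 members were more positive in CFZ-resistant L363, against 8.06% of all genes, led by MRPS30 (1.02, adjusted p = 0.02) and MRPL44 (0.81, adjusted p = 0.043), and 21 passed without DMSO replicate 2 of CFZ-resistant L363. Without 8 other libraries the count was 1 to 3: 3, 2 and 1 for DMSO and 3, 3 and 1 for HFG replicates 1, 2 and 3 of AMO1, and 3 and 1 for HFG replicates 1 and 3 of CFZ-resistant L363. With the GC and length offset the 24 h splits were 8 higher and 4 lower for NCP26 and 13 and 5 for HFG, and with the GC offset 1 higher and 2 lower for NCP26. The DMSO comparisons in AMO1 at 24 h carry the set difference noted above. Across members the NCP26 changes of the 2 lines had a Pearson r of 0.59 at 6 h and 0.64 at 24 h, against 0.61 and 0.62 over all genes. Without NCP26 6 h replicate 2 and DMSO 24 h replicate 2 of CFZ-resistant L363 it was 0.56 and 0.63.

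The compounds were compared directly at 1 µM in 12 pairs, with adjustment within each pair over all genes. NCP26 and HFG at 6 h gave 0 called members in AMO1 in edgeR and in DESeq2, with 10 at an unadjusted p under 0.05. Of all genes 0.0651% were higher and 0.195% lower. The median member was at 0.19 in the direction of NCP26 (−0.002 over all genes), with 69 of 75 positive. The 95% intervals ran from −0.34 to 0.91 over members. For MRPL4 the difference was 0.27 (interval 0.02 to 0.52, adjusted p = 0.35). In CFZ-resistant L363 at 6 h NCP26 and HFG also gave 0 in both tools, with 2 at an unadjusted p under 0.05 and 0.0% of all genes. The median was 0.16 and the intervals ran from −0.47 to 0.85, across sets B and C. Without NCP26 replicate 2 the count was 0 and the median 0.02. At 24 h in AMO1, 11 members were higher and 20 lower with NCP26 than with HFG, against 22.6% and 22.4% of all genes, from MRPS34 (−0.77, adjusted p = 1.7e-05) to MRPL18 (0.63, adjusted p = 0.0001). The GC and length offset turned the split to 14 higher and 10 lower. At 24 h in CFZ-resistant L363, 9 were lower, against 7.43%, led by MRPS12 (−0.48, adjusted p = 0.0069). It was 3 lower and 1 higher with the GC and length offset, and 14, 4, 5, 5, 3 and 3 without NCP26 replicates 1, 2 and 3 and HFG replicates 1, 2 and 3.

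HFG and halofuginol, its analogue, differed in both lines. In AMO1 at 6 h, 32 members were lower and 8 higher with HFG, against 26.1% and 25.6% of all genes, with MRPL4 at −1.06 (SE 0.0712, adjusted p = 2.2e-09), MRPS26 at −0.90 and MRPL16 at −0.88. DESeq2 called 23 members, and with the GC and length offset 21 were lower and 12 higher. In CFZ-resistant L363 at 6 h, where both lay in set C, 34 were lower and 8 higher, against 24.2% and 23.1%, with MRPS23 at −0.52 (adjusted p = 1.6e-06) and MRPL4 at −0.49 (adjusted p = 2.2e-08). The GC and length offset gave 16 lower and 15 higher. MRPL4 was at 114.3, 124.3 and 116.8 CPM with HFG and at 170.0, 160.8 and 179.3 with halofuginol, with no overlap. At 24 h, 19 were higher and 22 lower in AMO1 (27.9% and 28.7% of all genes), from MRPL36 at −0.92 (adjusted p = 7.6e-06) to MRPL50 at 0.85 (adjusted p = 5.2e-05). In CFZ-resistant L363, 5 were higher and 9 lower (9.59% and 12.3%), from MRPL49 at −0.47 (adjusted p = 0.0064) to MRPL58 at 0.57 (adjusted p = 0.0095). With the GC offset 5 were higher and 5 lower, and with the GC and length offset 5 and 4. That last count of 14 was 6, 7, 6 and 7 without HFG replicates 1, 2 and 3 and halofuginol replicate 2, and 2 with DESeq2.

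NCP26 and NCP22 differed as well. In AMO1 at 6 h, 7 members were higher and 6 lower with NCP26, against 12.6% and 12.2% of all genes, with MRPL1 at 0.65 (adjusted p = 0.0018), MRPL58 at 0.61 (adjusted p = 0.0053) and MRPL4 at −0.52 (adjusted p = 0.0031); the count was 7 without NCP22 replicate 2. In CFZ-resistant L363 at 6 h, 6 were higher and 1 lower, against 9.96% and 10.4%, with MRPL58 at 0.75 (adjusted p = 0.0084) and MRPL4 at −0.39 (adjusted p = 0.04). Without NCP26 replicate 2, 6 were higher and 12 lower, and without NCP26 replicates 1 and 3 and NCP22 replicates 1, 2 and 3 the counts were 4, 11, 2, 4 and 1. With the GC offset 3 were higher and 0 lower, and with the GC and length offset 7 and 4. At 24 h in that line 5 were higher and 21 lower, against 16.2% and 17.9%, with MRPS34 at −0.72 (adjusted p = 5.9e-05) and MRPL14 at −0.63 (adjusted p = 0.00062). Adjusted for GC content and length, 10 were higher and 12 lower. MRPL4 stood at 132.0, 120.8 and 128.5 CPM with NCP22, above all NCP26 libraries (−0.49, adjusted p = 0.00047), and MRPL58 was higher with NCP26 by 0.45 (adjusted p = 0.049). DESeq2 called 11 members, and 15 were called in edgeR without NCP26 replicate 2.

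Between the DMSO groups of AMO1, 52 of 76 members were lower at 24 h and 2 higher, against 23.4% and 23.1% of all genes. The 2 were MRPL10 at 0.22 and MRPL30 at 2.11. The median was −0.37. After adjustment for GC content and length it was −0.23, when 32 were lower and 3 higher, against 22.11% and 22.13% of all genes. MRPS26 (−0.83), MRPL24 (−0.81) and MRPL4 (−0.81, adjusted p = 8.1e-08) were lowest. In CFZ-resistant L363 9 of 75 were lower, against 5.81% of all genes (median −0.61), led by MRPL52 (−1.07) and MRPL12 (−0.97). After that adjustment 20 were lower, against 9.98% of all genes. The DMSO libraries of this line lay in set B at 6 h and in set C at 24 h, so time and set cannot be told apart there. Without DMSO 24 h replicate 2, 48 were lower (median −0.39). The all-gene calls of that fit are not given here, so this count has no share to be set beside. Without the other libraries the count was 14 and 2 for DMSO 24 h replicates 1 and 3 and 0 for each 6 h replicate.

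Between the untreated lines at 6 h, 18 members were higher and 20 lower in CFZ-resistant L363, against 28.9% and 31.3% of all genes. MRPL41, a large-subunit protein also known for promoting apoptosis, was at 127.5, 114.4 and 127.0 CPM in CFZ-resistant L363 and at 53.8, 55.2 and 39.6 in AMO1 (1.29, SE 0.111, adjusted p = 3.4e-09). MRPL15 was at 179.4, 172.6 and 176.0 against 70.7, 95.4 and 87.4 CPM (1.04, adjusted p = 9.9e-09). MRPL18 (−1.03) and MRPL10 (−1.01) were the lowest in CFZ-resistant L363. The lines lay in sets A and B, so line and set cannot be told apart here. At 24 h the lines lay in sets A and C, so the same holds. There 4 were higher and 11 lower, against 19.4% and 20.5%, with MRPL10 at −1.39 (adjusted p = 0.00089). Without DMSO 24 h replicate 2 of CFZ-resistant L363, 20 were higher and 22 lower, and 7 passed without DMSO replicate 2 or 3 of AMO1. The all-gene calls of these fits are not given here.

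Over the 18 comparisons with DMSO, the 75 members tested in all of them passed in a median of 3, against 4 over 9729 genes. The members MRPL33, MRPL35, MRPL38, MRPL46, MRPS18B and MRPS36 passed in none (8% of members, against 632 of these genes, 6.496%). Of the 3 paralogues of 1 bacterial small-subunit protein, MRPS18A fell in 1 comparison (−0.49 with HFG in CFZ-resistant L363 at 6 h) and MRPS18C rose in 1 (0.49 with HFG in AMO1 at 24 h), while MRPS18B ranged from −0.33 to 0.19 without passing. MRPS12, a protein of the decoding centre, fell in 4 and rose in none (−0.47 to 0.29), though its value with HFG in CFZ-resistant L363 at 6 h turned positive after adjustment for GC content (0.03). MRPL12, the stalk protein that also binds mitochondrial RNA polymerase, fell in 5 and rose in none (−0.37 to 0.47), but adjustment for GC content and length turned its values positive with NCP26 (0.22) and HFG (0.07) in AMO1 and with HFG in CFZ-resistant L363 (0.12), all at 6 h. MRPL41 rose in 1 and fell in 2 (−0.47 to 0.60), and the same adjustment turned its values with HFG at 6 h to 0.21 in AMO1 and 0.11 in CFZ-resistant L363. MRPS30, found in the large subunit despite its symbol, fell in 5 and rose in 1 (−0.61 to 0.48). Several of these comparisons share DMSO libraries. These calls and ranges include the libraries that stood apart and are not given without them. The highest values of MRPL12, MRPS12 and MRPS30 came from CFZ-resistant L363 at 24 h. The highest of MRPL41 and the lowest of MRPS18B came from CFZ at 24 h in AMO1.

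Members with a bacterial counterpart (43) and those without (33) had medians of −0.23 and 0.10 with NCP26 at 24 h in AMO1 (−0.12 and 0.07 after adjustment for GC content and length). With HFG at 6 h their medians were −0.29 and −0.21, and the same adjustment turned the order, to −0.09 and −0.13. Members with the YY1 letters shown above had medians of −0.04 with NCP26 at 6 h and 0.12 at 24 h, against −0.14 and −0.18 for members without. For the ETS letters the medians were −0.05 and 0.13, against −0.14 and −0.22. With the GC offset the medians at 24 h were 0.13 and −0.08 with and without the YY1 letters and 0.05 and −0.14 with and without the ETS letters.

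The lists of other ribosome and mitochondrial translation genes were described in the same way. Over all genes in AMO1 at 6 h, 26.6% fell and 27.7% rose with HFG, 19.2% and 18.1% with NCP26 and 12.8% and 14.1% with CFZ. In AMO1 at 6 h all 79 cytosolic ribosomal protein genes fell with HFG (median −0.52), 8 (10.1%) fell with NCP26 (median −0.23) and 78 rose with CFZ (median 0.29). Of the 13 mitochondrially encoded mRNAs, the templates of this ribosome, 10 fell with HFG and 6 with NCP26 at 6 h. For the AMO1 comparisons with DMSO at 24 h set and treatment coincide. Of all genes 30.9% fell and 29.8% rose with NCP26 there, and 30.5% fell and 28.5% rose with HFG. All 13 fell with NCP26 (median −0.44, with MT-ND4 at −0.68, adjusted p = 2.9e-19). With HFG 9 rose and 1 fell (median 0.24, with MT-CO2 at 0.52, adjusted p = 2.5e-10). Values with the set term or the offsets are not given for these lists. Of the 5 mitoribosomal proteins with other names, DAP3, a GTP-binding small-subunit protein, rose with CFZ at 6 h from 295.7 to 453.9 CPM (0.61, SE 0.0654, adjusted p = 3.2e-07). AURKAIP1 (−0.42, adjusted p = 0.00047), GADD45GIP1 (−0.34, adjusted p = 0.0032) and PTCD3 (−0.22, adjusted p = 0.042) fell with HFG at 6 h, and CHCHD1 had −0.26 (adjusted p = 0.14).

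Beside these shares, of 17 mitochondrial aminoacyl-tRNA synthetases 5 fell and none rose with NCP26 at 6 h (29.4% and 0.0%), and 10 fell and 2 rose at 24 h (58.8% and 11.8%). PARS2, the mitochondrial prolyl-tRNA synthetase, was at −0.12 (adjusted p = 0.76) at 6 h and rose by 0.69 (SE 0.258, adjusted p = 0.022) at 24 h, from 5.59 to 9.37 CPM. Of 17 translation factors 5 fell and 2 rose with NCP26 at 6 h (29.4% and 11.8%), and TUFM, the elongation factor that delivers tRNA, fell by 0.55 on the log2 scale with NCP26 and by 0.56 with HFG. Of 26 assembly factors 8 fell and 4 rose with HFG at 6 h (30.8% and 15.4%). GTPBP10, a GTPase of late large-subunit assembly, rose from 24.7 to 52.6 CPM (1.11, SE 0.122, adjusted p = 2e-06), and the helicase DHX30 fell (−0.49, adjusted p = 7e-05). LRPPRC, which stabilises mitochondrial mRNAs, fell with NCP26 at 24 h (−0.73, adjusted p = 1.1e-13). Among regulators, MYC fell with NCP26 (−1.08, adjusted p = 6e-06) and HFG (−1.21, adjusted p = 1.2e-09) at 6 h. DDIT3, the ISR transcription factor CHOP, rose with NCP26 from 77.6 to 280.4 CPM (1.86, adjusted p = 1.4e-07) and with CFZ to 252.1 CPM (1.695, adjusted p = 2.6e-13). Whether either bears on the members was not tested.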

How the data were processed

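The authors made the gene count table from poly(A) libraries with a directional kit, sequenced on a NextSeq instrument; the methods name kallisto with 31-base words on a GRCh38 transcriptome and the submitters' notes list kallisto and hg19, without versions. The deposited values are whole counts per gene (unit counts), summed over transcripts. Symbols, GC content, length and coordinates were taken from GENCODE v44, which held 19299 of 20167 ids (95.7%). All 3 libraries of each of 22 groups were used, and no pair held identical values.

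Counts were tested with edgeR 4.0.16 (R 4.3.3, limma 3.58.1) by the quasi-likelihood test on the groups compared, after filterByExpr (minimum count 10, minimum total 15) and TMM scaling, with Benjamini-Hochberg adjustment over all tested genes at 0.05, in 38 comparisons. SE is the fold change over the square root of F. CPM are TMM-scaled over all 66 libraries, without a pseudocount. Alternatives were DESeq2 1.42.0, its size factors, no filter, each library left out, a replicate block, and offsets for GC content (lowess, span 0.3); a set term and a GC and length offset were added after seeing the data. The edgeR step was tested on simulated data. The members and lists were chosen with earlier results of these data known. Genes named are the 3 highest and 3 lowest called members with a mean of at least 5 CPM in each contrast of DMSO with CFZ, HFG or NCP26, the 2 highest and lowest in the others, a list of 10 members of defined function, and at most 3 genes of each other list; others were named after their values were seen. Samples sharing a number did not deviate together, so the numbers were not taken as pairs.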

Additional observations from a re-analysis of the deposited data

Results flagged for a closer look

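Each of the following differed between lines or times by a test of the difference itself, an interaction term in edgeR's quasi-likelihood test. For the change with NCP26 at 6 h, 3 members differed between CFZ-resistant L363 and AMO1: MRPL3 (0.55), MRPL49 (−0.75) and MRPS26 (1.04), where 1.96% of all genes were higher and 0.752% lower. For NCP26 at 24 h, 2 members differed between the lines, MRPL4 (0.75) and MRPL49 (−0.89), where 2.97% and 2.44% of all genes were. For HFG at 24 h, 6 differed, of which MRPL44 (0.81) and MRPS30 (1.02) had the largest values, where 8.06% of all genes were higher. For NCP26 in AMO1, 8 members differed between 24 h and 6 h, among them MRPL1 (−0.71), MRPS24 (−0.52), MRPL13 (0.90) and MRPL58 (0.97), where 7.36% of all genes were higher and 10.1% lower. Leaving out 1 library moved these counts between 0 and 4, 1 and 19, 1 and 21, and 6 and 10. All values are differences of log2 fold changes. The changes at 6 h and those of CFZ-resistant L363 at 24 h were each measured within 1 library set, whereas in AMO1 at 24 h treatment and set cannot be told apart.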

How the results depend on the processing

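Counts of members called in edgeR's quasi-likelihood test were recomputed under each alternative. With DESeq2's size factors all 38 counts stayed within 1.5 times. The cause of the following changes was not tested. With DESeq2's Wald test, counts in AMO1 moved from 17 to 8 (CFZ 6 h), 10 to 4 (NCP22 6 h) and 40 to 23 (HFG against halofuginol 6 h), and in CFZ-resistant L363 from 38 to 19 (HFG 6 h), 11 to 3 (halofuginol 6 h), 9 to 3 (NCP26 against HFG 24 h), 26 to 11 (NCP26 against NCP22 24 h), 14 to 2 (HFG against halofuginol 24 h) and 9 to 23 (DMSO over time); the line interaction of NCP26 at 24 h moved from 2 to 4. Without the filter, counts of 0 became 2 (halofuginol 6 h), 1 (NCP22 24 h), 1 (halofuginol 24 h) and 1 (NCP26 against HFG 6 h) in AMO1, and in CFZ-resistant L363 NCP26 6 h gave 8, NCP26 against NCP22 6 h 11 and DMSO over time 23. With the replicate block, which the correlations of same-numbered samples did not justify, halofuginol 6 h in AMO1 gave 1, NCP26 6 h in CFZ-resistant L363 1, DMSO over time in that line 30 and the line interaction of NCP26 at 6 h 1; the other counts stayed within 1.5 times. With the GC offset, halofuginol 6 h in AMO1 gave 1, and in CFZ-resistant L363 HFG 6 h 20, halofuginol 6 h 1 and NCP26 against NCP22 6 h 3. With the block and GC offset, these were 2 for halofuginol 6 h in AMO1, and in CFZ-resistant L363 0 for NCP26 6 h, 19 for HFG 6 h, 1 for halofuginol 6 h, 15 for NCP26 against NCP22 24 h and 4 for DMSO over time.

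With the GC and length offset, counts in AMO1 were 5 (NCP22 6 h), 1 (halofuginol 6 h), 22 (CFZ 24 h), 1 (NCP26 against HFG 6 h) and 35 (DMSO over time). In CFZ-resistant L363 they were 9 (NCP26 6 h), 22 (HFG 6 h), 0 (halofuginol 6 h), 4 (NCP26 24 h), 11 (NCP26 against NCP22 6 h), 4 (NCP26 against HFG 24 h), 9 (HFG against halofuginol 24 h) and 20 (DMSO over time). The lines at 24 h gave 33, and the interactions of NCP26 with line at 6 h and 24 h, of HFG with line at 24 h and of NCP26 with time gave 5, 12, 18 and 14. With the set term, NCP26 24 h and HFG 24 h in AMO1 gave 14 and 16, and NCP26, HFG and halofuginol at 6 h in CFZ-resistant L363 gave 13, 5 and 1.

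Leaving out 1 library at a time gave ranges, in AMO1, of 11 to 32 (NCP26 6 h), 10 to 18 (CFZ 6 h), 1 to 14 (NCP22 6 h), 0 to 8 (halofuginol 6 h), 1 to 31 (CFZ 24 h), 0 to 1 (NCP22 24 h) and 7 to 16 (NCP26 against NCP22 6 h). In CFZ-resistant L363 they were 0 to 22 (NCP26 6 h), 1 to 13 (halofuginol 6 h), 0 to 16 (NCP26 24 h), 0 to 5 (HFG 24 h), 1 to 18 (NCP26 against NCP22 6 h), 3 to 14 (NCP26 against HFG 24 h), 15 to 24 (NCP26 against NCP22 24 h), 6 to 12 (HFG against halofuginol 24 h) and 0 to 48 (DMSO over time). The lines at 24 h ranged from 7 to 42, and the line interactions from 0 to 4 (NCP26 6 h), 1 to 19 (NCP26 24 h) and 1 to 21 (HFG 24 h). Except where stated above, the all-gene calls of these fits are not given.

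Changes of sign were recorded only for named values called in the main fit or in the alternative, and all of these were with HFG or NCP26. With the GC offset, the values with HFG at 6 h were −0.32 for MRPS18C in AMO1, and in CFZ-resistant L363 0.0339 for MRPL12, −0.10 for MRPL19, 0.0265 for MRPS12 and −0.32 for MRPS18C. With the block and GC offset they were, in CFZ-resistant L363, 0.0395 for MRPL12, −0.10 for MRPL19, 0.0239 for MRPS12 and −0.32 for MRPS18C. With the GC and length offset MRPL12 had 0.22 (NCP26 6 h), 0.0715 (HFG 6 h) in AMO1 and 0.12 (HFG 6 h) in CFZ-resistant L363, MRPL41 had 0.21 and 0.11 with HFG at 6 h in the 2 lines, MRPL42 had −0.13 with HFG at 6 h in AMO1, and in CFZ-resistant L363 MRPL19, MRPS12 and MRPS18C had −0.18, 0.13 and −0.28. With the set term MRPS12 had 0.0586 with NCP26 at 24 h in AMO1. Of the other named values under an alternative, 2408 stayed on the same side of the threshold, 253 lost their call and 32 gained one. Values called in neither fit are among the 2408 whether or not their sign changed.

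With a median of 3165566 counts and 3 libraries a group, members at a few CPM rest on few counts.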
